A study of Homo sapiens with 4 samples.

Results

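Collagen chains are modified and folded inside the endoplasmic reticulum before they are secreted, and 8 genes of that process and its product were followed here across the 4 arrays of the series. They were 3 lysyl hydroxylases (PLOD1, PLOD2 and PLOD3), the catalytic subunits P4HA1 and P4HA2 of prolyl 4-hydroxylase, the collagen galactosyltransferase COLGALT1, the collagen chaperone SERPINH1 and the collagen chain COL12A1. All 8 were measured, by 14 probe sets that the platform annotation assigns to 1 of these genes alone, out of 19798 genes and 35184 such probe sets. The genes were chosen with their values on these arrays known, so their values are a description and no test of them is given. The limma intervals and the ranks among all genes given for them are not adjusted for that choice. They are not read as tests.

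The cell line was HCT-116 dicer-, a derivative of the human colon carcinoma line HCT-116 in which Dicer, the nuclease that processes microRNA precursors, is altered. Total RNA was measured. Each array measured cells 24 h after transfection: 2 arrays of mock transfection, 1 of the intact miR-124 duplex (G/P, whole guide strand) at 10 nM, and 1 of the segmented miR-124 duplex (G10.12/P, guide strand in segments) at 10 nM. The series asks how much of the activity of the microRNA, which lowers messenger RNAs that pair with the 5′ end of its guide strand, is kept when that strand is segmented. Every group carries the dicer- alteration, the control was mock transfection rather than an unrelated duplex, and 1 cell line was used. Each duplex had 1 array, so neither has a replicate check. The spread of every comparison comes from the mock pair, which the labels do not say were separate cultures.

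The levels are log2 intensities, and a difference of 1 is a doubling. The authors' quantile normalization left the median change over all genes at 0.02 with the intact and 0.01 with the segmented duplex. Of all genes, 3.23% stood at least 1.5-fold apart between the mock arrays, while 0 of the 8 genes did. Among 11 colon epithelial markers, EPCAM (13.04), KRT19 (11.11) and CDH1 were bright in mock cells, and 5 of 11 lay above the median level of genes (log2 6.62); CDX1, VIL1, LGALS4, CDH17 and CEACAM5 were at 3.39 or below. Of 14 fibroblast and mesenchymal markers 3 lay above that median, VIM (9.43), ACTA2 (7.18) and FN1 (6.66). DCN, LUM, PDGFRA, POSTN, COL1A2 and COL3A1 were at or below 3.97. In a culture, fewer cells that make a transcript and less of it per cell cannot be told apart.

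Lysyl hydroxylases add a hydroxyl group to lysines of the collagen chain, which serves as the site for sugars and for cross-links between molecules. PLOD1 acts on lysines of the triple helix, PLOD2 on those of the telopeptides at the chain ends, and PLOD3 also carries glycosyltransferase activity. COLGALT1 adds galactose to hydroxylysine. Prolyl 4-hydroxylase makes the hydroxyproline that stabilises the triple helix, with P4HA1, P4HA2 or P4HA3 as its catalytic subunit. SERPINH1, also known as HSP47, binds the folded triple helix and escorts it to the Golgi. COL12A1 encodes the chain of collagen XII, a FACIT collagen, which does not form fibrils itself but sits on the surface of collagen fibrils. Several of these enzymes are known targets of the hypoxia-inducible factor HIF, which binds a core of ACGTG or GCGTG.

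The 250 bases before the start of COL12A1, P4HA1 and PLOD2 are shown because these 3 genes were the ones at least 1.5-fold below both mock arrays with both duplexes. The sequences are from RefSeq on GRCh38.p14, read 5′ to 3′ in the direction of the gene, and capitals mark ACGTG or GCGTG on either strand, so that CACGT and CACGC are the same letters read from the other strand.
COL12A1, chr6:75206054-75206303, minus strand: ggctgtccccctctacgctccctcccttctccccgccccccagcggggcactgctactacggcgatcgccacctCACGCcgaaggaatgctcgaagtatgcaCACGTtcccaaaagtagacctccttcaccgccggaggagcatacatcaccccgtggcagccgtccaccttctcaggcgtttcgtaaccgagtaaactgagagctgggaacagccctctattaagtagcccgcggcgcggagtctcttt
P4HA1, chr10:73096867-73097116, minus strand: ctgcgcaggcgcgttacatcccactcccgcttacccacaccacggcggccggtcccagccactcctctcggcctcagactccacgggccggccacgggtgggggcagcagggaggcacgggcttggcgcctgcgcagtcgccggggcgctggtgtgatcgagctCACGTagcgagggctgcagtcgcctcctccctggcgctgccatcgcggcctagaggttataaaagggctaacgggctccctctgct
PLOD2, chr3:146161185-146161434, minus strand: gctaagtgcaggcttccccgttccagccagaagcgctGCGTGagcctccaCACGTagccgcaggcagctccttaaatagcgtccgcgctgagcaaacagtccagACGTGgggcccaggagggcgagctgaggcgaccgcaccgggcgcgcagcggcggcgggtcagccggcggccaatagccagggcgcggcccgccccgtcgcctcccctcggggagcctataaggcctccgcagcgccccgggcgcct
All 8 genes matched an entry, SERPINH1 with 2 alternative starts. ACGTG was found 2 times before PLOD2 and 1 time each before P4HA1 and COL12A1. It was found 0 times before PLOD1, PLOD3, P4HA2 and COLGALT1, and before 1 of the 2 starts of SERPINH1. Of 35116 such windows over all genes 18.5% held ACGTG, and of the 16148 with at least 60% G and C 22.2% did. GCGTG was before PLOD1, PLOD2, COLGALT1, COL12A1 and 1 start of SERPINH1, in 32.2% of all windows and in 49.2% of those with at least 60% G and C. Either core was before PLOD1, PLOD2, P4HA1, COL12A1, COLGALT1 and 1 start of SERPINH1, and neither was before PLOD3 and P4HA2. Of all windows 43.2% held either core, and of those with at least 60% G and C 59.4% did. The motif was chosen with earlier results of these data known, so its place among the 8 genes is read no further. A match gives letters only, and no binding was measured here.

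With the intact duplex 4 of the 8 genes, COL12A1, PLOD3, P4HA1 and PLOD2, were at least 1.5-fold below both mock arrays, and 0 of 8 were that far above, against 9.52% and 13.7% of all genes. With the segmented duplex 3 of 8, COL12A1, P4HA1 and PLOD2, were that far below and 0 of 8 above, against 4.89% and 7.37% of all genes. The genes were chosen with these comparisons in view, so these counts are read no further. The median log2 change of the 8 was -1.15 with the intact and -0.45 with the segmented duplex.

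**Figure D1:**
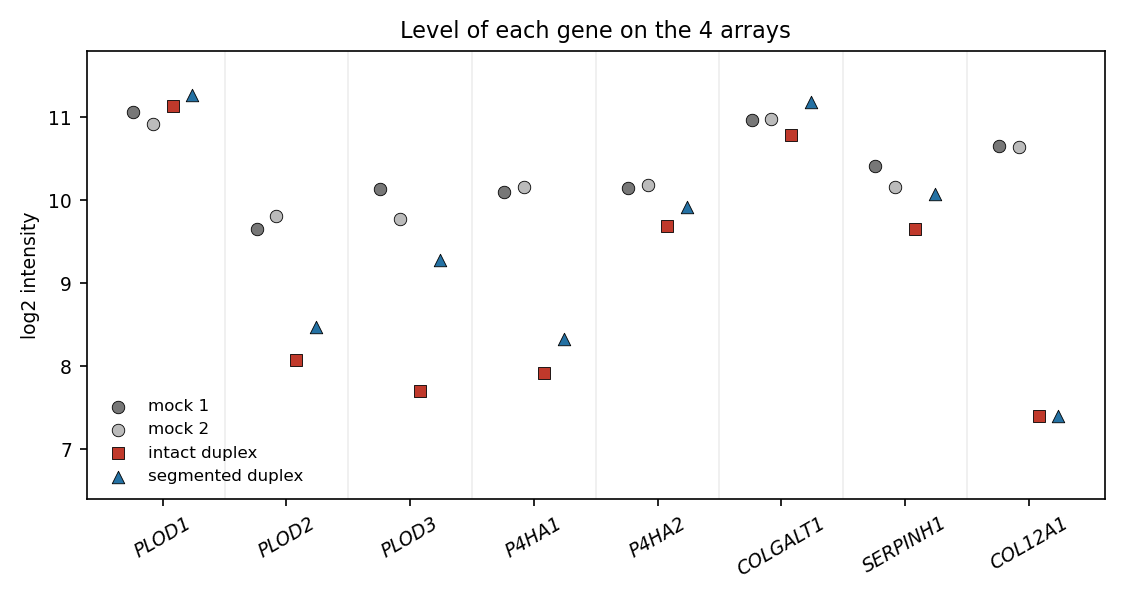
Log2 intensity (vertical axis) of the probe set that stands for each of the 8 genes (horizontal axis) on the 2 mock arrays (circles), the intact duplex array (squares) and the segmented duplex array (triangles). For COL12A1 both duplexes lie at 7.40, and for PLOD3 the segmented array (9.28) lies between the mock arrays and the intact array (7.70).

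On the brightest probe set of each gene, COL12A1 showed the greatest difference of the 8 with either duplex. Its intensity was 1609 and 1591 on the mock arrays and 169 on each of the 2 duplex arrays. The mock arrays lay within 1.01-fold of each other, and both duplex arrays were far below them. The log2 change was -3.25 with the intact and -3.24 with the segmented duplex (limma SE 0.12 each), or 9.49-fold and 9.47-fold lower. The duplexes differed from each other by 0.00 (limma 95% interval -0.39 to 0.39), so a difference of up to 1.31-fold either way lies inside the interval. Of 19798 genes 2, COL12A1 among them, had a segmented change of that size or lower, and 15 had an intact change at or below that of COL12A1.

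The other probe set of COL12A1 went the same way by less. Its intensity was 319 and 276 in the mock pair, 186 with the intact and 157 with the segmented duplex, which are log2 changes of -0.67 and -0.92. Here the segmented array was the lower of the 2 duplex arrays, by 0.25 on the log2 scale, against a gap between the mock arrays of 8.32 and 8.11. The mean of both probe sets gave -1.96 and -2.08, so the size of the COL12A1 difference depends on the probe set, while its direction was the same for both. With the mean of all probe sets, P4HA1 (-2.31) and PLOD3 (-2.25) changed more than COL12A1 with the intact duplex. With the segmented duplex COL12A1 still changed most, ahead of P4HA1 (-1.81). The transcripts that each probe set covers were not analysed here.

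P4HA1 and P4HA2, catalytic prolyl 4-hydroxylase subunits, were below mock by unequal amounts. P4HA1 had an intensity of 1099 and 1142 on the mock arrays, 243 on the intact duplex array and 321 on the segmented duplex array. The log2 changes were -2.21 and -1.80 (limma SE 0.12 each), which left 21.7% and 28.7% of the mock level. Both duplex arrays were far outside the mock pair, which lay within 1.04-fold. Its other probe set, at 300 and 337 in the mock pair, 59.8 with the intact and 90.7 with the segmented duplex, gave -2.41 and -1.81, close to the first. P4HA2 had an intensity of 1137 and 1163 in the mock pair, 823 with the intact and 972 with the segmented duplex. Its duplex arrays were below both mock arrays, by 1.40-fold and 1.18-fold (log2 changes of -0.48 and -0.24, limma SE 0.12), and neither reached 1.5-fold. P4HA3, the other catalytic subunit, was dim, at log2 4.93 and 4.47 in the mock pair, 4.17 with the intact and 4.64 with the segmented duplex. Its segmented array lay inside the mock pair.

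The 3 lysyl hydroxylases behaved differently from one another. PLOD2 had an intensity of 804 and 897 on the mock arrays, 269 on the intact duplex array and 356 on the segmented duplex array. The log2 changes of -1.66 and -1.26 (limma SE 0.14 each) were far larger than the difference of -0.16 between the mock arrays. A second probe set gave the same order, with 445 and 450 in the mock pair, 121 with the intact and 156 with the segmented duplex (-1.88 and -1.52). The third PLOD2 probe set was at log2 2.31 and 3.01 in the mock pair, 2.71 with the intact and 2.79 with the segmented duplex. There the duplex arrays lay inside the mock pair. Its mock mean of 2.66 was below the median of 3.94 of 16 genes of other tissues, such as INS and CD3E, so its change is not read further.

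PLOD3 was the gene of the 8 whose arrays differed most between the duplexes. Its intensity was 1123 and 873 on the mock arrays, 208 on the intact duplex array and 624 on the segmented duplex array. The intact array was far below the mock pair, at a log2 change of -2.25 (limma SE 0.20). The segmented array was below both mock arrays as well, 1.80-fold below mock array 1 and 1.40-fold below mock array 2, with a log2 change of -0.67 from their mean (limma SE 0.20). Whether the segmented duplex array passed 1.5-fold thus rested on the mock array used. The mock arrays of PLOD3 were 1.29-fold apart, the widest gap among the 8 genes. PLOD3 was 2.99-fold higher with the segmented than with the intact duplex, a log2 difference of 1.58 (limma 95% interval 0.93 to 2.23). That interval is not adjusted for the number of genes and takes its spread from the mock pair. The mock arrays differed by 0.36. Of all 19798 genes 34, or 0.172%, had a difference of that size or more in that direction. Only 1 probe set measured PLOD3, so no second one can be set beside it.

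PLOD1, by contrast, was not below mock on either duplex array. Its intensity was 2141 and 1936 in the mock pair, 2246 with the intact and 2469 with the segmented duplex. Both duplex arrays were above both mock arrays, by 1.05-fold to 1.28-fold, and the intact array was nearer to mock array 1 than the mock arrays were to each other. The log2 changes of 0.14 and 0.28 had a limma SE of 0.14. With arrays centred on their medians they were 0.05 and 0.22.

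**Figure D2:**
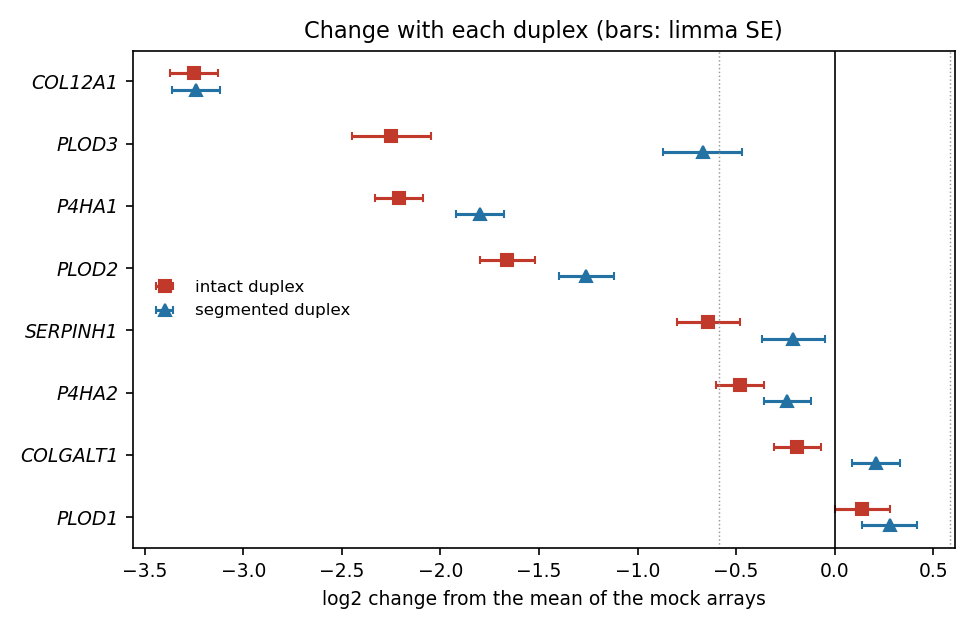
Log2 change from the mean of the 2 mock arrays (horizontal axis) for each of the 8 genes (vertical axis) with the intact duplex (squares) and the segmented duplex (triangles); bars are limma standard errors, which rest on the mock pair, and dotted lines mark 1.5-fold. COL12A1 has the same change with both duplexes, -3.25 and -3.24, while PLOD3 lies at -2.25 and -0.67.

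The galactosyltransferase COLGALT1, which acts on the product of the lysyl hydroxylases, stayed within 1.2-fold of mock on its brightest probe set. Its intensity was 2011 and 2020 on the mock arrays, 1764 on the intact duplex array and 2327 on the segmented duplex array. The intact array was below both mock arrays and the segmented array above both, by -0.19 and 0.21 on the log2 scale (limma SE 0.12 each). The limma 95% intervals of these changes were -0.53 to 0.14 and -0.13 to 0.54, so each ran to either side of no change. With arrays centred on their medians the changes were -0.28 and 0.15. A second probe set, with 1741 and 1837 in the mock pair, 1485 with the intact and 2110 with the segmented duplex, showed the same split. On the third, the dimmest, the intact array was also below both mock arrays, and the segmented array, at 140.5, was above both by little, the nearer mock value being 139. The difference between the duplexes on the brightest probe set was 0.40 (limma 95% interval 0.01 to 0.79).

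SERPINH1, the chaperone, had an intensity of 1362 and 1146 in the mock pair, 802 with the intact and 1077 with the segmented duplex. The intact array was below both mock arrays, 1.70-fold below mock array 1 and 1.43-fold below mock array 2, and the log2 change was -0.64 (limma SE 0.16). The segmented array was 1.06-fold below mock array 2, less than the 1.19-fold gap between the mock arrays, so its log2 change of -0.21 was not larger than their spread.

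**Figure D3:**
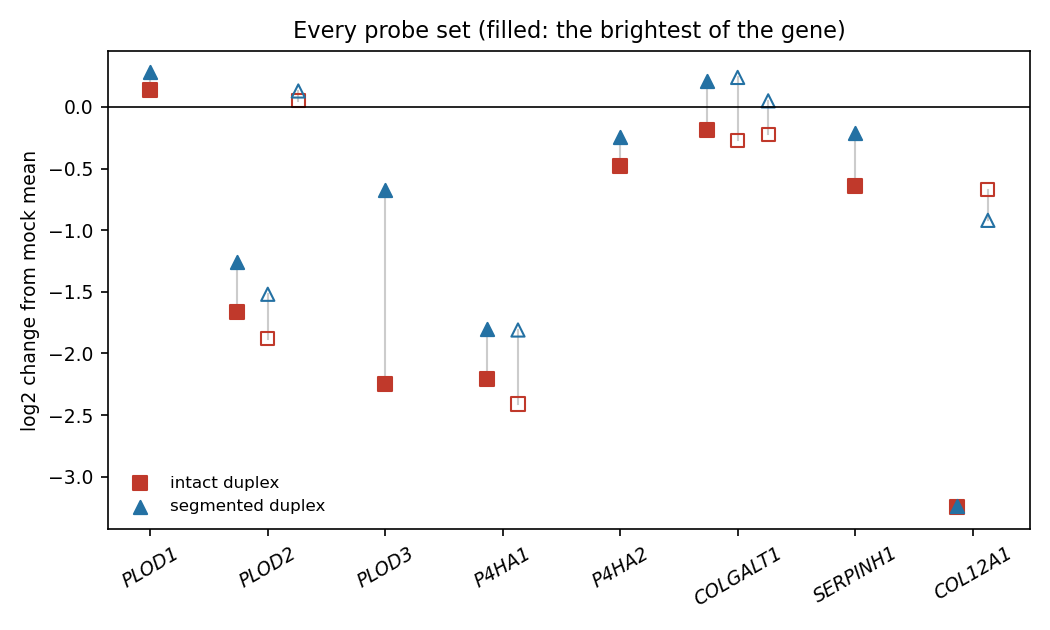
Log2 change from the mock mean (vertical axis) for every probe set of the 8 genes (horizontal axis), with the intact duplex (squares) and the segmented duplex (triangles) joined by a grey line; filled symbols are the brightest probe set of a gene, and open ones the others. P4HA1 has 2 probe sets close together, COL12A1 has 2 that differ in size (-3.25 and -0.67 with the intact duplex), and the third probe set of PLOD2 lies near 0.

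Of the 8 genes, 7 were below both mock arrays with the intact duplex and 1 above, beside 39.8% and 44% of all genes. With the segmented duplex 6 were below and 2 above, beside 37.5% and 42%. Set directly against each other, the segmented array was higher than the intact array for 8 of the 8 genes, against 47.1% of all genes. For COL12A1 that difference was 0.00 and its sign carries no information. On its other probe set the difference was -0.25, and the mean of its probe sets gave -0.12. The genes were chosen with their changes from mock in view, so this count is read no further. By at least 1.5-fold the segmented array was higher for 1 gene, PLOD3, against 5.02% of all genes, and lower for 0, against 4.96%. The differences for PLOD2 (0.40, limma 95% interval -0.05 to 0.85), P4HA1 (0.41, 0.01 to 0.80), SERPINH1 (0.43, -0.10 to 0.95), P4HA2 (0.24, -0.15 to 0.63) and PLOD1 (0.14, -0.30 to 0.58) were below 1.5-fold. Their intervals leave room for a difference past 1.5-fold for each of these genes except PLOD1, whose upper bound was just under it, and each interval assumes that a lone duplex array varies like the mock arrays.

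The genes whose values over the 4 arrays lay nearest to those of each gene that differed from mock by at least 2-fold were looked up among 9891 genes above the median mock level. Nearness was the Euclidean distance of the 4 log2 values after the mock mean was taken off. For COL12A1 they were PAPSS2, which makes the sulphate donor PAPS (distance 0.35), ADI1 of methionine salvage (0.37) and the vesicle SNARE gene VAMP3 (0.54). PAPSS2 stood at 9.08 and 9.05 in the mock pair, 5.48 with the intact and 5.77 with the segmented duplex. P4HA1 had closer neighbours, the planar polarity gene VANGL1 (0.09), the galactosyltransferase gene B4GALT1 (0.13) and the importin gene IPO11 (0.13). For PLOD2 they were MOSPD2 (0.06), the sorting nexin gene SNX18 (0.06) and LRP11 (0.07). For PLOD3 they were the transglutaminase gene TGM2 (0.11), ECH1 of fatty acid oxidation (0.17) and IFRD2 (0.18). TGM2 had 7.94 and 7.70 in the mock pair, 5.63 with the intact and 7.17 with the segmented duplex, the same order as PLOD3. The distances rest on 4 values each.

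The other genes of collagen folding and modification, taken as a list, mostly did not pass the test. Of 12 genes 10 were measured; P4HB and COLGALT2 were not analysed here. With the intact duplex 1 of 10 rose and 0 fell in limma's test at an adjusted p of 0.05 over all genes, against 14.5% of genes higher and 10.4% lower. The gene that rose was P3H4, a partner of the lysyl hydroxylase complex, at 9.10 and 9.02 on the mock arrays and 9.78 with the intact duplex (log2 change 0.72, limma adjusted p = 0.0286). With a trended and robust prior or log2(intensity + 32) 3 of 10 passed. With the segmented duplex 0 of 10 passed in limma, against 3.31% of genes higher and 2.68% lower; 1 of 10 had an unadjusted p under 0.05, and 2 passed with a trended and robust prior. The median changes of 0.09 and 0.03 lay near those of all genes, 0.02 and 0.01. CRTAP and PPIB, which form the prolyl 3-hydroxylation complex with P3H1, had changes of -0.21 and -0.28 with the intact duplex and 0.04 and -0.19 with the segmented one. The sign of the 0.04 was shared by only 1 of 5 probe sets of CRTAP.

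Genes of procollagen export, processing and cross-linking changed in both directions. With the intact duplex 4 of 22 fell and 5 rose, and 13 did not pass, beside 10.4% of all genes lower and 14.5% higher, with a median of 0.18. PCOLCE2, an enhancer of the protease that trims the C-propeptide, fell from 8.75 and 8.65 on the mock arrays to 6.70 (log2 change -2.00, limma adjusted p = 0.00824). The COPII coat gene SEC13 fell by 1.04, from 12.69 and 12.60 to 11.61, and SAR1B, the small GTPase that starts the COPII coat, by 1.01, with 4 of its 5 probe sets going that way. TLL2, a protease of the BMP1 family, rose from 4.40 and 4.61 to 6.41 (1.91, limma adjusted p = 0.00906), from below the median level of genes. SEC24D, BMP1, KLHL12, TRAPPC2 and LOXL2 also passed. The last 5 were named after their values were seen. With the segmented duplex 1 of 22 rose, TLL2, to 5.81 (1.31, limma adjusted p = 0.0386), and 0 fell, beside 3.31% of all genes higher and 2.68% lower, with a median of 0.29. Of the 22, 9 had an unadjusted p under 0.05, and 8 passed limma's test without the dimmest 40% of genes, 9 with a trended and robust prior and 9 with log2(intensity + 32). PCOLCE2 was at 8.21 there, a change of -0.49 that did not pass.

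On the brightest probe set of each gene, the other collagen chains gave no fall as large as that of COL12A1. The dimmer COL12A1 probe set (-0.67 with the intact duplex) changed less than COL4A4 (-0.97) and COL13A1 (-0.84) did with that duplex. Of 42 measured chains 7 lay above the median level of genes in mock cells. With the intact duplex 7 of 42 rose and 2 fell, with a median of 0.02. The share that rose was near the 14.5% of all genes called higher, and 10.4% were called lower, so the count says nothing particular to collagen chains. COL4A6, a basement membrane chain, rose by 1.83, from 6.49 and 6.37 to 8.27, although 1 of its 2 probe sets did not go that way. COL4A5, its partner chain, rose by 1.36, from 7.81 and 8.11 to 9.33, COL1A1 by 1.20, from 8.71 and 8.41 to 9.76, and COL15A1 by 1.19 from 2.68 and 2.18, a level below the median of the genes of other tissues. With the segmented duplex 2 of 42 rose and 1 fell, beside 3.31% and 2.68% of all genes, and 8 passed without the dimmest 40% of genes, 7 with a trended and robust prior and 7 with log2(intensity + 32). COL4A5 rose by 1.22 and COL4A6 by 1.14, and COL13A1, a transmembrane collagen, fell by 0.84, from 8.86 and 8.92 to 8.05. COL13A1 was also at 8.05 with the intact duplex (limma adjusted p = 0.0205 with the intact and 0.0484 with the segmented duplex). Of the 9 other FACIT collagens 0 passed limma's test with either duplex; 1 of 9 had an unadjusted p under 0.05 with each, and with a trended and robust prior 2 and 0 passed, and without the dimmest 40% of genes 1 and 1. Only COL9A3 among them was above the median level of genes in mock cells.

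**Figure D4:**
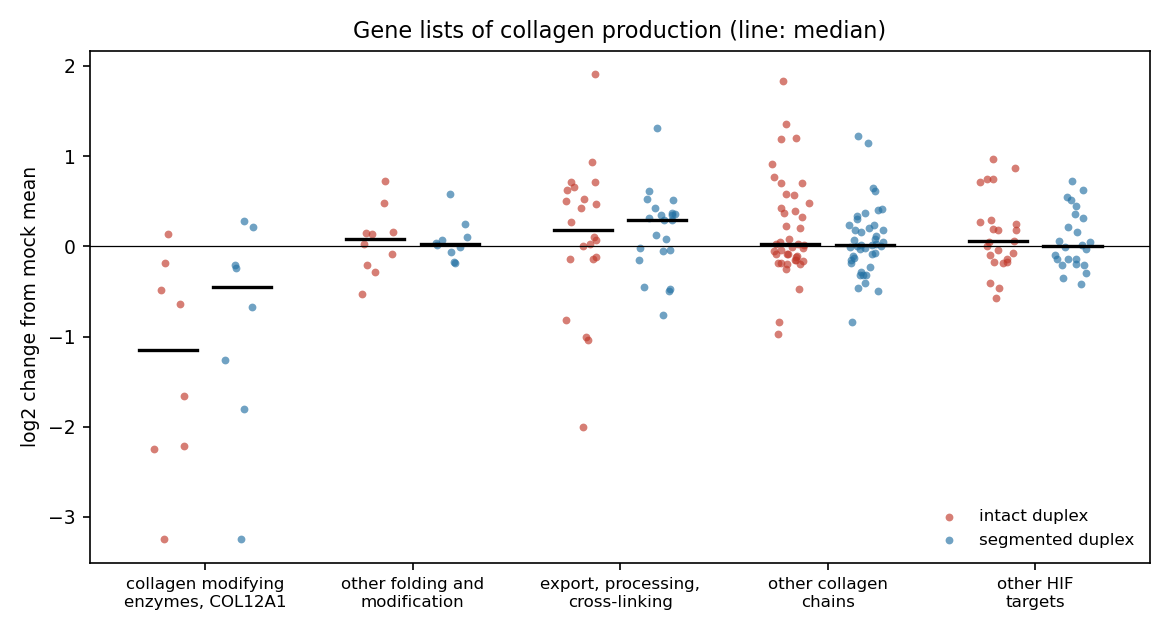
Log2 change from the mock mean (vertical axis) of each gene (points) of the 8 genes and of 4 lists of related genes (horizontal axis), with the intact duplex at the left and the segmented duplex at the right of each pair; black lines are medians. The 8 genes have medians of -1.15 and -0.45, and the medians of the other lists lie between 0.00 and 0.29.

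Other targets of HIF were set beside the hydroxylases, because P4HA1, P4HA2, PLOD1 and PLOD2 are themselves induced by hypoxia. Of 24 measured HIF targets 4 rose and 0 fell with the intact duplex, with a median of 0.05; 14.5% of all genes were called higher and 10.4% lower, so the share that rose was near that of all genes. Without the dimmest 40% of genes 7 passed, with a trended and robust prior 12 and with log2(intensity + 32) 8. These counts, and those below for the segmented duplex, take rises and falls together. The demethylase gene KDM3A rose by 0.87, the mitophagy receptor gene BNIP3L by 0.97, PDK1 by 0.75 and MXI1 by 0.71. With the segmented duplex 0 of 24 passed limma's test, 8 had an unadjusted p under 0.05, 9 passed with a trended and robust prior and 8 without the dimmest 40% of genes, and the median was 0.00. The glucose transporter gene SLC2A1 had changes of 0.06 and 0.16 and VEGFA of -0.17 and -0.21, none of which passed.

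Markers of mesenchymal cells, in which collagens are abundant, moved in both directions. With the intact duplex VIM fell by 1.18, ACTA2 rose by 2.23 and FN1 by 1.22, and with the segmented duplex FN1 rose by 0.82, out of 14 measured. Of all genes 10.4% were called lower and 14.5% higher with the intact duplex, and 2.68% and 3.31% with the segmented one. Beside these shares the calls say nothing particular to mesenchymal markers. The summed intensity of the 14 was 1173 and 1093 in the mock pair, 1427 with the intact and 1024 with the segmented duplex. Their part in the values of COL12A1 and the enzymes was not tested. Among the 11 epithelial markers CDH1 rose by 0.79 and CDX2 by 0.69 with the intact duplex, a share near the 14.5% of all genes called higher. With the segmented duplex 0 of 11 passed limma's test, beside 3.31% of all genes higher and 2.68% lower. There 3 had an unadjusted p under 0.05 and 2 passed with a trended and robust prior.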

How the data were processed

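Total RNA of 4 samples was amplified, labelled with biotin and read on one-colour arrays, per the labels. The deposited intensities are linear, with 1 value for each probe set on each array, and the authors made them with RMA, per the submitters' processing notes. RMA corrects background, quantile normalizes the arrays and summarises the probes of a set; its version was not stated. Log2 was taken with no pseudocount. Of 52377 probe sets, 35184 had 1 gene in the platform annotation, 374 had several and 16819 were not listed; symbols were updated to a RefSeq table of GRCh38.p14 (35134 matched, 50 not). The brightest probe set stood for a gene.

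All 19798 genes were fitted with limma 3.58.1 in R 4.3.3, with 3 group means over 4 arrays, 1 residual degree of freedom and a prior of 2.89, and Benjamini-Hochberg adjustment. The fit was tested on simulated data in which all arrays had the same spread. That could not show whether a lone duplex array varies like the mock arrays. The genes, lists and motif were chosen with earlier results of these data known. Named genes were the 8 genes, up to 4 list genes past the test with the largest change per comparison, and the 3 nearest genes. CRTAP, PPIB, SLC2A1, VEGFA, COL4A4, COL9A3 and the markers were named besides. The number of arrays limits the precision. Alternatives were a further quantile normalization, median centring, leaving out the dimmest 40% of genes, a trended and robust prior, the mean of all probe sets, log2(intensity + 32) and leaving out either mock array.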

Additional observations from a re-analysis of the deposited data

Results flagged for a closer look

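COLGALT1 is listed because the intact array was below both mock arrays and the segmented array above both; the segmented minus intact difference was 0.40 on the log2 scale, which is under 1.5-fold. The pattern was the same on all 3 of its probe sets, on the dimmest with the segmented array at 140.5 against a mock value of 139. That the 2 duplexes move the gene in opposite directions was not tested, since each has 1 array.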

How the results depend on the processing

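The number of arrays limits every value, and no detection call was used. The median of the 8 genes with the intact duplex was -1.24 with arrays centred on their medians, -0.90 with the mean of all probe sets and -1.09 with log2(intensity + 32), against -1.15. With the dimmest 40% of genes left out, 4781 genes (25 on the lists) passed limma with the segmented duplex, and 1850 (7) for segmented against intact. With the trended and robust prior these were 5415 (27) and 2412 (12), and for the intact duplex 7809 (40). With log2(intensity + 32) they were 4357 (25) and 1150 (6). The main counts were 4937 (23) for intact, 1186 (4) for segmented and 0 (0) for segmented against intact, where 3273 genes had an unadjusted p under 0.05; the cause was not tested. Leaving out a mock array left no residual degree of freedom, so it gave values only. Without mock array 1 or 2 the median of the 8 was -1.13 or -1.17 with the intact and -0.37 or -0.59 with the segmented duplex. Without mock array 2, 5 genes in place of 4 were 1.5-fold lower with the intact duplex, SERPINH1 added, and 4 in place of 3 with the segmented duplex, PLOD3 added. Without mock array 1 the counts were 4 and 3. With both mock arrays kept and arrays centred on their medians, the counts were 5 with the intact and 3 with the segmented duplex. No paired analysis was possible, because each duplex had 1 array and the labels number only the mock arrays.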
